A study of Mus musculus with 32 samples.

Results

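The collagen chain genes were taken as every gene on the array whose annotated symbol reads Col, a number, a and a number, with the probe set of highest mean signal kept for each gene. The rule gave 42 genes of the 18193 with a symbol, all 42 under a current RefSeq symbol: 11 chains of fibrillar collagens, 8 chains of basement membrane collagens and 23 other chains. Of the 42, 35 passed the filter on low signals and were among the 13334 genes tested. The other 7 (Col6a5, Col9a2, Col9a3, Col10a1, Col11a2, Col19a1 and Col20a1) stayed at or under the filter of 100.4, the median of all deposited signals, on every one of the 32 arrays. A total of 23 chains were above it on all 32 arrays.

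Collagens are triple helices wound from 3 chains, secreted and then assembled outside the cell. Fibrillar chains build the tensile fibres of airway, vessel and alveolar walls, type IV chains form the sheet under epithelium and endothelium, and the remaining chains coat fibrils, form beaded filaments or span the plasma membrane. In the lung, fibroblasts make most fibrillar collagen, and matrix is laid down fastest while alveoli are forming after birth. The alveolar basement membrane also holds a type IV network of the alpha3, alpha4 and alpha5 chains, known from Alport syndrome.

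The study measured lung RNA of Gsr-WT and Gsr-KO mice, the latter lacking glutathione reductase, an enzyme that regenerates reduced glutathione. Per the labels all mice were C3H/HeN, each array held RNA from a portion of 1 animal's lung, and sex and the making of the Gsr allele are not given there. The E19 groups were embryos of day 19 with no exposure (4 arrays per genotype). The P5 groups were pups kept with their dams in room air or in 100% oxygen from day 0 to day 5 and taken at day 5 (3 arrays per genotype and exposure). The P56 groups had the same exposures and were taken at 56 days (3 arrays each), so the oxygen-exposed P56 mice had returned to room air for weeks. Below, WT and KO stand for the genotypes, oxygen for the exposure, and a difference is the log2 difference between group means of log2(signal + 26.3), tested with limma at an adjusted p of 0.05.

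The targeted gene separated the genotypes: Gsr signal was 498 to 1541 on the 16 WT arrays and 138 to 257 on the 16 KO arrays. The lung markers Sftpc, a surfactant protein of alveolar type 2 cells, and Ager, a receptor of alveolar type 1 cells, were at 12636 and 15943 or more on every array. Array medians ran from 68.4 to 125. KO E19 replicate 1 and WT P56 oxygen replicate 2 stood apart, with a log2 ratio of 3' to 5' control signal of 4.27 and 2.81 against at most 1.55 on the others. Among adults in air that ratio was 1.05, 0.81 and 0.68 on the KO arrays and 0.21, 0.35 and 0.36 on the WT arrays. KO E19 replicates 2 and 4 and WT E19 replicate 1 correlated best with KO P5 air replicate 1, and that array correlated best with KO E19 replicate 2. Of the WT E19 arrays 3 carried high signal of liver genes, given below beside the E19 results.

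The heat map of group means shows the main pattern, a drop of most chains between day 5 and day 56 with a few chains running the other way.

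**Figure D1:**
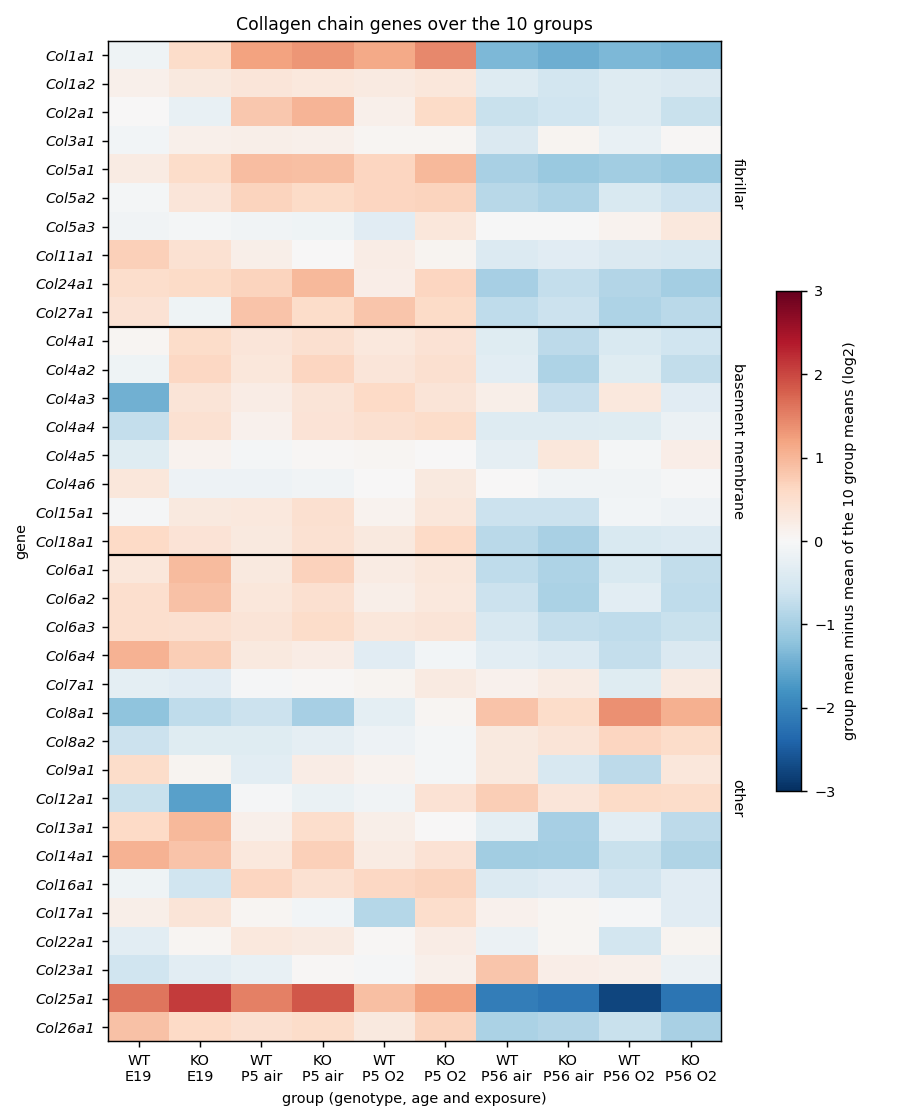
Mean log2(signal + 26.3) of the 35 tested chains (rows, by class) in the 10 groups (columns), minus the gene's mean over the 10 groups; red is higher, blue lower. Most fibrillar and type VI chains and Col25a1 are red at P5 and blue at P56, Col8a1 runs the other way, and Col4a3 is lowest in WT E19.

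From day 5 to day 56 in room air, which follows the lung from active alveolar formation to the adult, 19 of the 35 tested chains fell and 2 rose in WT mice. In KO mice 21 fell and 1 rose. Over all genes tested, 22.9% passed in WT (10.8% lower, 12.1% higher) and 29.6% in KO (14.3% lower, 15.3% higher). The median difference of the chains was -0.67 in WT and -1.07 in KO, against -0.0031 and 0.0039 over all genes. The same 18 chains fell in both genotypes. In bulk lung RNA, fewer cells of a type and less RNA per cell cannot be told apart. Groups did not overlap for 27 chains in WT (54.2% of all genes) and for 24 in KO (53.1%). Among the tested chains 6 (Col2a1, Col6a4, Col11a1, Col24a1, Col25a1 and Col26a1) passed the filter only through E19 or P5 arrays, so they were bound to be lower at P56 than there, and their calls, 4 in each genotype, support nothing. Of the other 29, 15 fell and 2 rose in WT (median -0.61), and 17 fell and 1 rose in KO (median -0.86). Of the 27 tested chains whose mean over all arrays exceeded the filter, 16 fell in WT and 18 in KO. Both counts include Col25a1, whose direction the filter fixed.

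**Figure D2:**
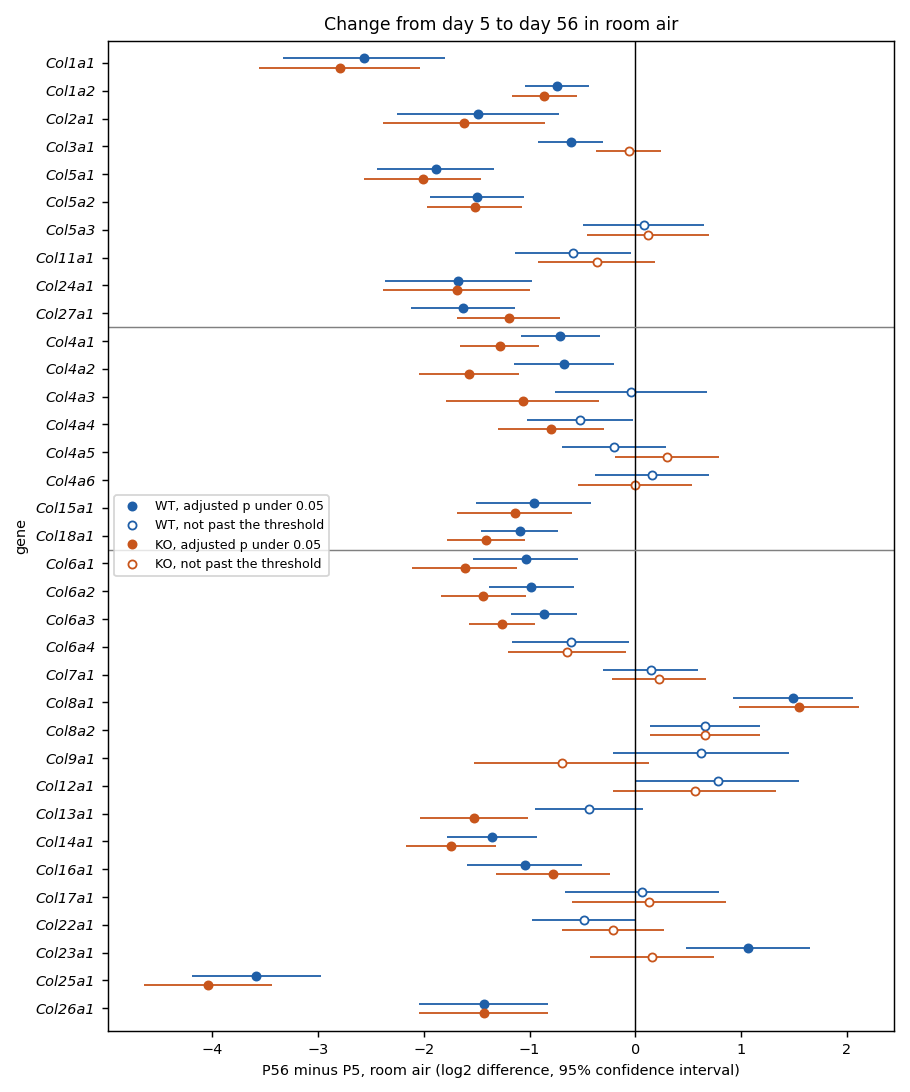
Log2 difference, P56 minus P5 in room air, for the 35 tested chains in WT (blue) and KO (orange), with 95% confidence intervals of the limma fit; filled points have an adjusted p under 0.05, and grey lines separate fibrillar, basement membrane and other chains. Col25a1 lies farthest left and Col8a1 farthest right, and the type IV chains Col4a1 to Col4a4 lie further left in KO than in WT.

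Among the fibrillar chains 8 of 10 tested fell in WT and 7 of 10 in KO. Without the 3 that were over the filter on no P56 array, 6 of 7 fell in WT (median difference -1.50) and 5 of 7 in KO (median -1.20). Col1a1, which encodes the alpha1 chain of type I collagen, the main collagen of lung interstitium, fell most of the fibrillar chains. Its signal was 7421, 6523 and 4119 on the WT P5 air arrays and 928, 993 and 974 on the WT P56 air arrays. In KO it was 4557, 6601 and 8412 at P5 and 999.8, 870.0 and 807 at P56. Every P5 value was above every P56 value, and the adult arrays lay close together. The difference was -2.57 ± 0.37 (SE, n = 3 per group; 5.92-fold; limma, adjusted p = 9.91e-06) in WT and -2.80 ± 0.37 (6.94-fold; adjusted p = 2.64e-06) in KO. On its second probe set the differences were -2.09 and -2.32. Adult mice that had been in oxygen as pups had like levels, 839, 1187 and 899.5 in WT and 1057, 806 and 971 in KO.

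The partner chain of type I collagen and the type III chain changed by less on their brightest probe sets. Col1a2, the alpha2 chain of type I, read 18396, 15430.5 and 16331 at P5 and 9649, 9114 and 11280.5 at P56 in WT, and its difference was -0.74 in WT and -0.86 in KO. Another of its probe sets, with a mean signal of 8131, had differences of -2.00 in WT and -2.23 in KO when every probe set was tested on its own. Col3a1, the chain of type III collagen found with type I in distensible tissue, read 22260.5, 19006 and 21584 in WT at P5 and 13446, 13871 and 13765 at P56, where the groups did not overlap. In KO it read 19399, 20372 and 21466 at P5 and 18805, 20867 and 19052 at P56, where the groups overlapped. The difference was -0.61 (adjusted p = 0.00366) in WT and -0.06 in KO, the latter not past the threshold. Its second probe set, mean 5622, fell in both, with differences of -1.63 in WT (adjusted p = 0.000344) and -1.06 in KO (adjusted p = 0.0124). The call for Col3a1 in KO therefore differed between its probe sets.

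The type V chains, which join type I fibrils and set their diameter, fell together. Col5a1 (alpha1) read 3453, 3061 and 2471 at P5 and 664, 810.2 and 889 at P56 in WT, a difference of -1.89 (3.70-fold), and -2.01 in KO. Col5a2 (alpha2) read 7748, 7134 and 8378 at P5 and 2521, 2536 and 3163 at P56 in WT, a difference of -1.50, and -1.52 in KO. Neither chain's P5 and P56 values overlapped in either genotype. Col5a3 (alpha3), at 82.5 to 269 over all arrays, differed by 0.08 and 0.12, not past the threshold.

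Col27a1, a fibrillar chain best known from cartilage, read 1309, 1192 and 867 at P5 and 357, 327 and 336 at P56 in WT, a difference of -1.63, with -1.20 in KO. The dim fibrillar chains Col2a1, the main chain of cartilage, and Col24a1 passed the threshold as lower in both genotypes, but both lay under the filter on all P56 arrays and passed it only through younger lungs. For Col24a1 in KO the bound was at least 1.11-fold, and no fold is given for the rest. Of the cartilage markers 4 of 8 were tested, of which 2 rose and 1 fell in each genotype. Col11a1, which initiates fibrils, differed by -0.59 in WT and -0.36 in KO, neither past the threshold.

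**Figure D3:**
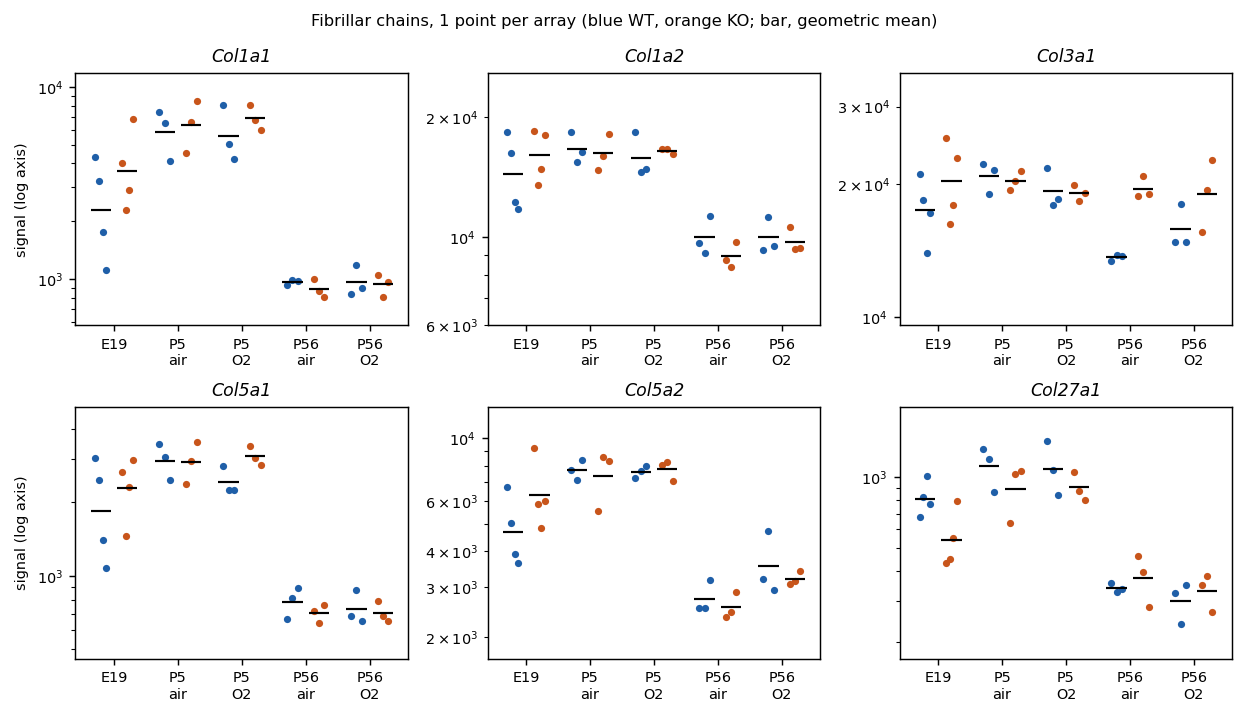
Signal on every array (log axis) of 6 fibrillar chains by age and exposure, WT in blue and KO in orange, 1 point per array, bars at geometric means. Col1a1, Col5a1, Col5a2 and Col27a1 drop at P56 in both genotypes and after both exposures, while Col3a1 stays between 13446 and 25493 throughout.

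Among the basement membrane chains 4 of 8 fell in WT (median -0.60) and 6 of 8 in KO (median -1.10), and none rose in either. Col4a1 and Col4a2 encode the alpha1 and alpha2 chains found in nearly all basement membranes. Col4a2 read 12079, 10837 and 10965 at P5 and 6812, 6686 and 7781 at P56 in WT. In KO it read 13845, 13738 and 14214 at P5 and 4083, 4853 and 5169 at P56. The KO values were thus the highest of the 4 groups at P5 and the lowest at P56, with no overlap. The difference was -0.67 ± 0.23 in WT (adjusted p = 0.0349) and -1.57 ± 0.23 in KO (adjusted p = 9.88e-06). The differences of Col4a1 were -0.71 in WT and -1.28 in KO, and those of its second probe set -0.87 and -2.51.

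Col4a3 and Col4a4, the alpha3 and alpha4 chains of the alveolar and glomerular network, fell past the threshold in KO, with differences of -1.07 and -0.80. In WT their differences were -0.04 and -0.52, not past it. Col4a3 read 2433, 2294 and 2671 on the WT adult arrays and 936, 1621 and 1579 on the KO adult arrays. Col4a5, which completes that network, and Col4a6, which pairs with it elsewhere, did not pass the threshold in either genotype.

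The difference between genotypes in the P5 to P56 step was tested directly and no chain passed (0% of all genes did in limma). In that term 7 of 35 chains had an unadjusted p under 0.05, against 1531 of 13334 genes. That term was -0.90 for Col4a2 (95% interval -1.57 to -0.23, adjusted p = 0.302), -0.57 for Col4a1 and -1.02 for Col4a3. That Col4a3 and Col4a4 passed in KO alone does not show that the genotypes differ in this step.

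Col18a1, a heparan sulfate proteoglycan of basement membranes whose end fragment is endostatin, fell in both genotypes. It read 1545, 1435 and 1334 at P5 and 647, 581 and 759.7 at P56 in WT, with a difference of -1.09, and -1.41 in KO. Col15a1, its relative at the interstitial border of basement membranes, had differences of -0.96 and -1.14, both past the threshold.

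**Figure D4:**
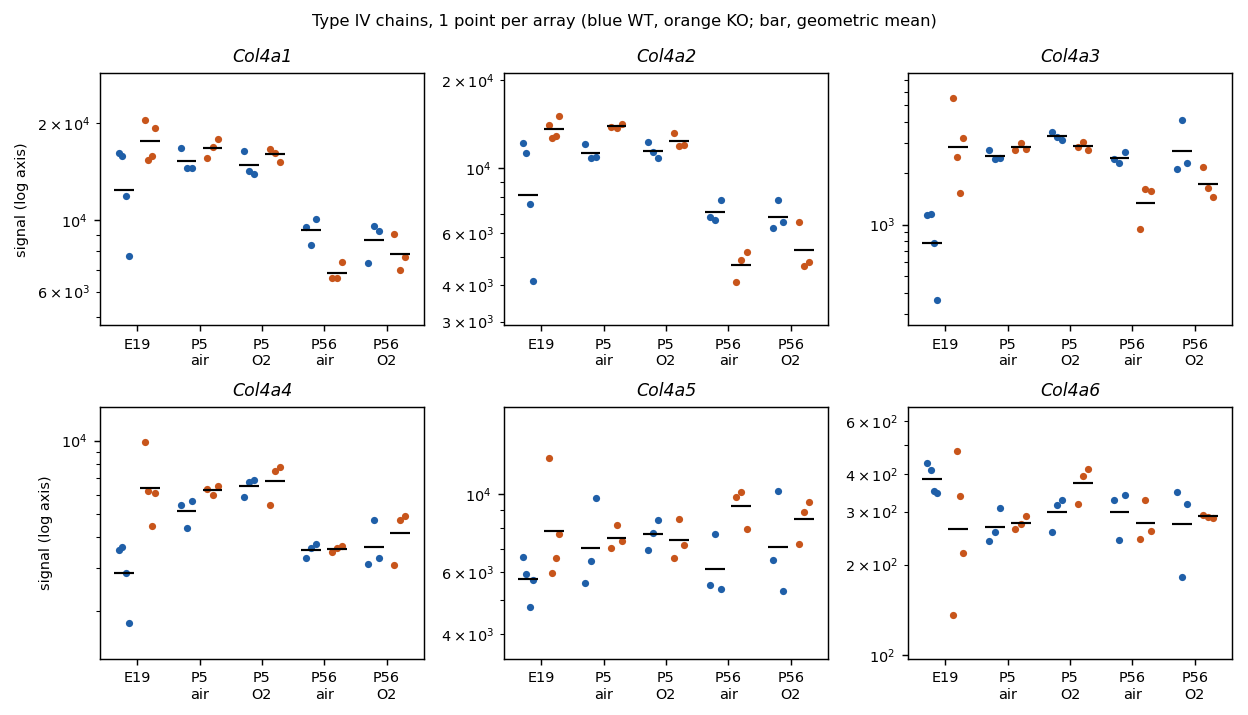
Signal on every array (log axis) of the 6 type IV chains by age and exposure, WT in blue and KO in orange, 1 point per array, bars at geometric means. WT E19 lies lowest for Col4a3, at 360.5 to 1148 against 1522 to 5496 in KO E19, and KO P56 air lies below WT P56 air for Col4a1, Col4a2 and Col4a3.

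Of the 17 other chains tested 7 fell and 2 rose in WT, and 8 fell and 1 rose in KO. Without the 3 over the filter on no P56 array (Col6a4, Col25a1 and Col26a1), 5 of 14 fell in WT and 6 of 14 in KO. The type VI chains, which form beaded filaments between cells and fibrils, fell in both genotypes apart from Col6a4. The differences in WT and KO were -1.04 and -1.61 for Col6a1, -0.98 and -1.44 for Col6a2 and -0.87 and -1.26 for Col6a3. Col6a3 read 10596, 9018 and 9935 at P5 and 5080.2, 5385 and 5699 at P56 in WT. All WT adult values of Col6a3 lay under all WT P5 values, as did those of Col6a1 and Col6a2. The differences for Col6a4, under the filter on all P56 arrays, were -0.61 and -0.65, not past the threshold.

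Of the fibril-associated chains, which sit on fibril surfaces, Col14a1 fell steadily with age. In WT it read 6538, 5510.1, 4003 and 3647 at E19, then 3029, 2739 and 2840.1 at P5 and 998, 1190.4 and 1138 at P56. No neighbouring pair of these ages overlapped. Its day 5 to day 56 difference was -1.35 in WT and -1.74 in KO. Col16a1, another fibril-associated chain, rose from E19 to P5 and then fell, and read 1654, 1600.2 and 1367 at P5 and 650.0, 833 and 716 at P56 in WT. Its difference was -1.05 in WT and -0.78 in KO. Col12a1, which lies on type I fibrils in strained tissue, went the other way without passing the threshold, 0.78 in WT and 0.56 in KO.

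The transmembrane chain Col25a1, known from neurons and muscle innervation, had the largest fitted fall of the 35 tested chains in both genotypes. It read 823, 923 and 715 on the WT P5 air arrays and 53.8, 75.4 and 16.3 on the WT P56 air arrays. In KO it read 1324, 1017 and 849 at P5 and 42.5, 26.7 and 49.9 at P56. All adult values lay under the filter of 100.4, so the fall is given as a bound, at least 6.64-fold in WT and at least 8.46-fold in KO. The fitted values were -3.58 and -4.04, but Col25a1 passed the filter only through E19 and P5 arrays, so its calls support nothing. Oxygen-exposed adults were as low, at 19.0, 22.5 and 12.1 in WT and 39.6, 39.4 and 36.2 in KO. Col26a1, an emilin-like chain, was called lower in each genotype but lay under the filter on all P56 arrays, and its bound in KO was at least 1.01-fold.

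Col13a1, a transmembrane chain of cell contacts, read 1795, 1984 and 1489 at P5 and 1360.3, 1189 and 1308 at P56 in WT. In KO it read 3368, 1919 and 1798 at P5 and 824, 785 and 712 at P56. The difference was -0.43 in WT, not past the threshold, and -1.52 in KO (adjusted p = 4.06e-05). The difference between those steps was -1.09, with an adjusted p of 0.253.

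The chains that rose were Col8a1 and, in WT, Col23a1. Col8a1, a short network-forming chain of vessel walls, read 145, 115 and 177 at P5 and 462, 398 and 499.9 at P56 in WT, and 104, 115 and 100.4 at P5 and 368, 382 and 335 at P56 in KO. All adult values exceeded all P5 values. The rise was 1.49 ± 0.27 (2.81-fold; adjusted p = 0.000221) in WT and 1.55 ± 0.27 (adjusted p = 0.00011) in KO. Its partner Col8a2 differed by 0.66 in each genotype, not past the threshold (adjusted p = 0.062 and 0.0515). Col23a1, a transmembrane chain, read 661, 637 and 749 at P5 and 1455, 1313 and 1599 at P56 in WT, a rise of 1.06, against 0.16 in KO. One of its other probe sets rose by 0.79 in WT and another differed by 0.19, not past the threshold.

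**Figure D5:**
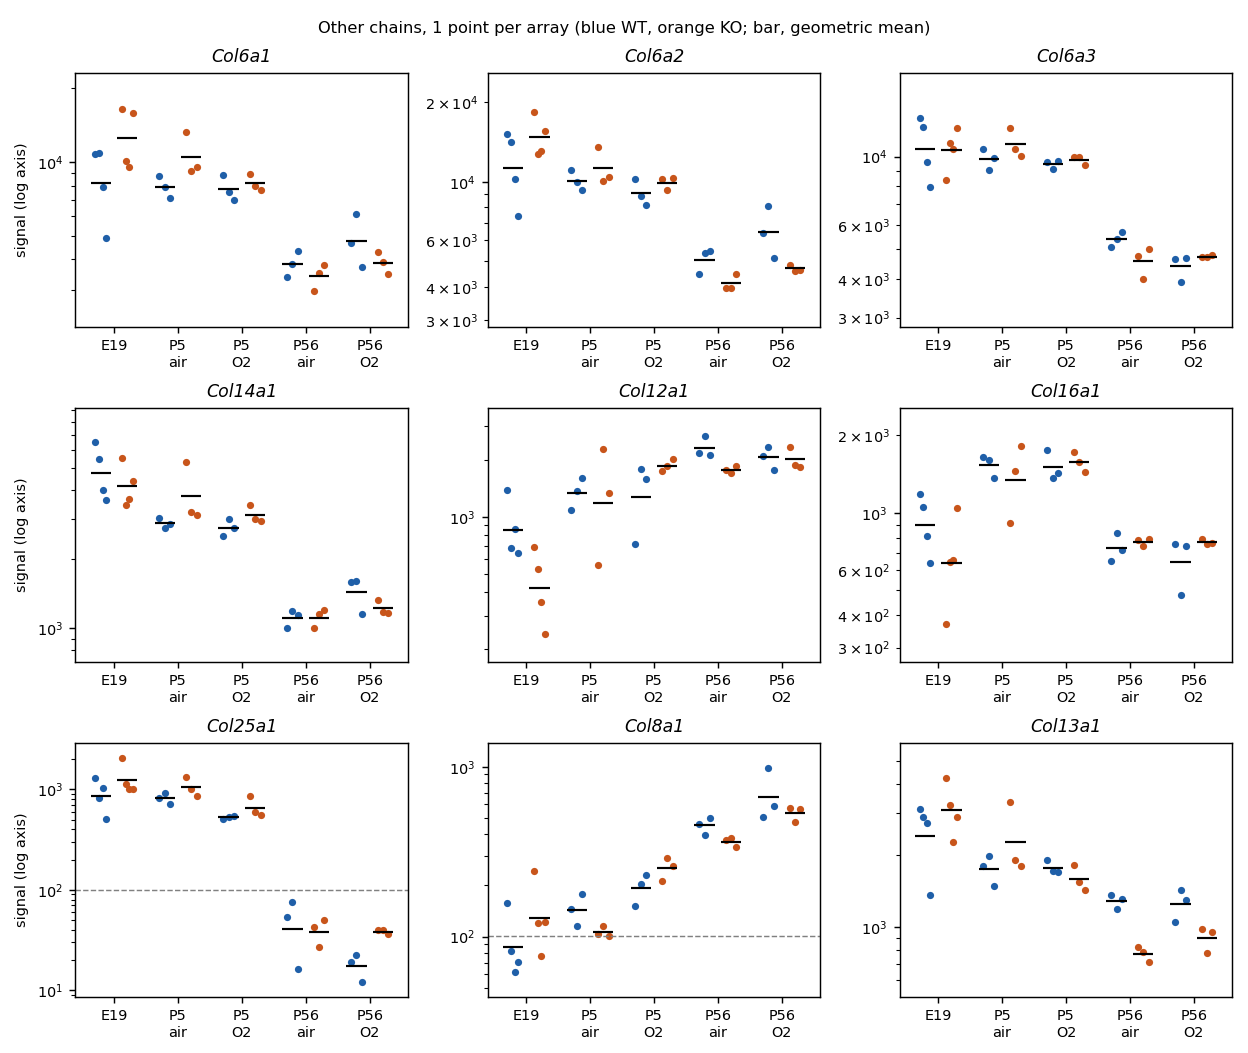
Signal on every array (log axis) of 9 other chains by age and exposure, WT in blue and KO in orange, 1 point per array, bars at geometric means; the dashed line is the filter of 100.4. Col25a1 lies under the line on all 12 P56 arrays, Col8a1 climbs with age, and Col12a1 is lowest in KO E19.

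The 6 lists of genes that work with collagen changed in both directions. Together 9 of their 73 tested genes rose and 22 fell in WT (42.5% called, beside 22.9% of all genes), and 12 rose and 26 fell in KO (52.1%, beside 29.6%). Of 19 maturation enzymes and chaperones tested, 4 fell and 2 rose in each genotype. P4ha3, a subunit of prolyl 4-hydroxylase, had differences of -2.81 in WT and -3.05 in KO, and P3h1, a prolyl 3-hydroxylase, of -0.88 and -1.26. Another prolyl 4-hydroxylase subunit, P4ha2, rose by 1.25 and 0.99. Of 9 genes for propeptide cleavage and crosslinking, 3 fell and 1 rose in WT and 6 fell and 1 rose in KO. Bmp1, the procollagen C-proteinase, had differences of -1.23 in WT and -0.90 in KO, while Pcolce2, its enhancer, rose by 1.97 and 1.41. Lox, the lysyl oxidase that starts crosslinking, fell by 1.74 in KO.

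Of 14 partners of type IV collagen in basement membranes, 6 fell in WT and 10 in KO, and none rose. The nidogen Nid2, which links laminin to type IV collagen, had differences of -1.94 and -2.83, and the laminin chain Lamc1 of -1.52 and -2.38. Of 12 fibril partners 5 fell and 3 rose in WT and 3 fell and 3 rose in KO. Prelp, a leucine-rich proteoglycan, rose by 3.97 and 2.23, whereas the matricellular Thbs2 had differences of -2.64 and -1.93. Of 11 genes of collagen breakdown 2 fell and 2 rose in WT, and 2 fell and 4 rose in KO. The membrane collagenase Mmp14 had differences of -1.67 and -1.96, and Mmp3 rose by 2.81 and 2.92. Of 8 collagen receptors 1 rose and 2 fell in WT and 2 rose and 1 fell in KO, with the inhibitory leukocyte receptor Lair1 up by 1.12 and 1.42.

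Markers of other cells also changed over this step. All 6 markers of dividing cells fell in both genotypes. Of 7 lung fibroblast markers 4 fell and 2 rose in WT and 4 fell and 1 rose in KO. Their averaged level was -0.21 to 0.11 at P5 and -0.07 to 0.16 at P56 in WT air. In KO air it was 0.09 to 0.44 at P5 and -0.12 to -0.006 at P56, without overlap. All 6 liver markers fell in WT and none passed the threshold in KO. All 4 erythroid markers tested fell in WT and 1 fell in KO. With the liver level as a covariate 20 chains were called in WT and 22 in KO. The part of dividing cells and of a changed cell mix was not tested.

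RefSeq promoter windows (GRCm38.p6, 250 bases before and 50 after the start) were held for 33 of the 42 chains, among them 13 of the 18 that fell in both genotypes. The start is that of the window in this table, which can differ from the end of the gene's span. The GC box GGGCGG was read on both strands, as GGGCGG or CCGCCC. It occurred in the windows of 21 of the 33 chains (63.6%), against 38.2% of 27025 genes. The 13 were near the tested chains with a window in this, at 9 of 13 (69.2%) against 18 of 27 (66.7%). The 13 include Col24a1 and Col25a1, whose direction the filter fixed. The CCAAT box, CCAAT or ATTGG, occurred in 13 of 33 (39.4%) against 41.1%, and TATAAA or TTTATA in 5 of 33 (15.2%) against 15.7%. Of the 13 that fell in both genotypes 6 had a CCAAT box and 0 had TATAAA, against 13 and 3 of the 27 tested. A match describes these letters and marks no known site. The 120 bases before the start are shown for 2 fibrillar chains that fell, the chain with the largest fall and the chain that rose in both genotypes, with those motifs in capitals.
Col1a2, chr6:4505498-4505617, plus strand: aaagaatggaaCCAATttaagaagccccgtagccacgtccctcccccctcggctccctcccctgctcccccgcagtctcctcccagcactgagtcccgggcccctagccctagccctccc
Col5a1, chr2:27886305-27886424, plus strand: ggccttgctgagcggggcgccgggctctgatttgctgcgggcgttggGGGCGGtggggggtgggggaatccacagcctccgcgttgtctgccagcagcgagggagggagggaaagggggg
Col25a1, chr3:130180725-130180844, plus strand: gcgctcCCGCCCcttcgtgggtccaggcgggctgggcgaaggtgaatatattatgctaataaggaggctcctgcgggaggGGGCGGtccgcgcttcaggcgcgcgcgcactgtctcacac
Col8a1, chr16:57754738-57754857, minus strand: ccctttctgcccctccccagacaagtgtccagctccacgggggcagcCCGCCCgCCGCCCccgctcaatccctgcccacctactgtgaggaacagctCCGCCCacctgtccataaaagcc
GC boxes stand in the stretches of Col5a1, Col25a1 and Col8a1, and a CCAAT box in that of Col1a2.

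The 6 type IV genes lie in 3 neighbouring pairs. RefSeq places Col4a1 at chr8:11198423-11312889 and Col4a2 at chr8:11312805-11449287 (GRCm38.p6), so that their transcribed spans overlap by 85 bases at their starts. Col4a4 (chr1:82448419-82587034) and Col4a3 (chr1:82586921-82722059) overlap by 114 bases, and Col4a6 and Col4a5 on chromosome X are separated by 1274 bases.

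At E19 the KO lung had higher signal of 4 of the 8 basement membrane chains, both members of each overlapping type IV pair, and of 1 type VI chain, and lower signal of 1 fibril-associated chain. These are 6 of the 35 tested chains, or 17.1%, near the 15.2% of all genes that passed, with 5 higher (6.97% of all genes) and 1 lower (8.28%). The groups stood fully apart for 3 chains, Col4a2, Col4a3 and Col4a4, or 8.57%, against 10.1% of all genes. The count of chains is therefore no result about collagens as a group. Fitting the 8 E19 arrays alone called none of the 6, and with the level of liver markers as a covariate 1 was called. The fibrillar chains had none called among 10.

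Col4a3 read 1138, 1148, 784 and 360.5 on the WT arrays and 5496, 2482, 1522 and 3193 on the KO arrays, a difference of 1.83 ± 0.30 (SE, n = 4 per group; limma, adjusted p = 0.000272). Col4a4 read 3565, 3653, 2854 and 1776 in WT and 9847, 6229, 4459 and 6113 in KO, 1.16 ± 0.21 higher (adjusted p = 0.000632). WT replicate 4 was lowest for both chains and KO replicate 1, the array with the high 3' to 5' ratio, was highest. The second probe set of Col4a3 was higher by 1.02, and the 2 others of Col4a4 by 1.30 and 0.70.

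Col4a2 read 12217, 11316, 7583 and 4119 in WT and 14073, 12637, 12891 and 15068 in KO, and was higher by 0.75 (adjusted p = 0.0115). Col4a1 was higher by 0.51 and Col6a1 by 0.61, with overlapping values. Col12a1 read 1378, 686, 862 and 641 in WT and 696, 528, 355 and 240.2 in KO, a difference of -0.97 (adjusted p = 0.0437). The highest KO array of Col12a1 lay above the 2 lowest WT arrays. Of the 73 tested genes of the 6 collagen pathway lists 7 were called at E19 (9.59%, beside 15.2% of all genes), none of them among the maturation, receptor or breakdown lists. Of the 14 basement membrane partners 1 was higher, the laminin chain Lama2 (1.08), and 1 lower, Lama1 (-0.92).

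Markers of other tissues differed between the E19 groups as well. The averaged centred level of 6 liver markers (Ahsg, Apoa1, Ttr, Alb, Apoa2 and Fgb) was -0.22, 6.43, 5.66 and 6.59 on the WT arrays and 0.46, -2.05, 1.46 and 0.92 on the KO arrays, all 6 were lower in KO, and their summed signal reached 138460 in WT. WT replicates 1 and 2, at -0.22 and 6.43 in liver level, had like values of Col4a2, Col4a3 and Col4a4. Replicates 3 and 4, at 5.66 and 6.59, had lower values of all 3 chains than replicates 1 and 2. Markers of dividing cells (6 of 6), erythroid cells (4 of 4) and squamous epithelium (3 of 5) were lower in KO. Markers of alveolar type 1 cells (3 of 7), alveolar type 2 cells (2 of 4), endothelium (3 of 6), lung fibroblasts (2 of 7), cartilage (1 of 4) and striated muscle (2 of 7) were higher. Their part in the result was not tested. With the liver level as a covariate the 1 called chain was Col12a1, whose difference grew to -1.84. Col4a3 was then at 1.49 (adjusted p = 0.0669), Col4a4 at 0.89 (adjusted p = 0.110), Col4a2 at 0.42, Col4a1 at 0.32 and Col6a1 at 0.53. Without WT E19 replicate 4, the array with the lowest Col4a1 to Col4a4 and the highest liver level, 2 chains were called, without replicate 3 there were 3, and without replicate 1, the WT array of low liver level, 10.

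From E19 to day 5 in air, the step across birth, 5 of 35 chains rose and 2 fell in WT (8.35% and 6.22% of all genes, 14.6% together). Col4a3 rose by 1.66 ± 0.33 (adjusted p = 0.00115), from the E19 values above to 2742, 2415 and 2458, with no overlap. Col4a4 rose by 0.84. Col1a1 rose by 1.34 (adjusted p = 0.0101) from 4307, 3251, 1751 and 1118, where WT replicate 1 exceeded the lowest P5 array. Col5a2 rose by 0.72 and Col16a1 by 0.76, while Col14a1 and Col6a4, at -0.74 each, fell. For 10 chains the groups did not overlap (29.5% of all genes). These comparisons share the WT E19 arrays with the E19 genotype comparison, and 4 chains were called with the 2 compared groups alone.

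In KO 3 chains rose over the same step and none fell (2.21% and 1.24% of all genes, 3.46% together): Col12a1 by 1.44, Col16a1 by 1.05 and Col2a1, which was over the filter on no E19 array and so is given no value. Col2a1 passed the filter only through P5 arrays, so the filter fixed its direction and its call supports nothing. Col12a1 read 553, 2288 and 1331 at P5, so KO P5 replicate 1 lay within the E19 range. Col4a3 and Col4a4 did not pass in KO, at 2719, 2997 and 2789 and at 6332, 5951 and 6506 on the P5 arrays. For 2 chains the groups did not overlap (6.88% of all genes). The genotype difference in the birth step was called for no chain (0.187% of all genes) and was -1.67 for Col4a3 (adjusted p = 0.156). For this difference 4 of 35 chains had an unadjusted p under 0.05, against 1553 of 13334 genes. Without KO P5 replicate 2 or 3 no chain was called in KO, and without replicate 1, the array nearest to the E19 lungs, 5 were; without KO E19 replicate 3 there was 1.

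Of the 73 tested genes of the collagen pathway lists 16 rose and 3 fell in WT (26.0% called, beside 14.6% of all genes), and 6 rose and none fell in KO (8.22%, beside 3.46%). Of the 9 processing and crosslinking genes 3 rose in WT, among them the lysyl oxidase relative Loxl1 (1.62), and 1 fell, Lox (-1.65). Of the 12 fibril partners 2 rose in WT, Dpt (1.80) and Postn (1.05), and of the 19 maturation genes 2 rose and 2 fell. Of the 8 collagen receptors 4 rose in WT, among them the integrin chains Itga1 (0.77) and Itga2 (0.88) and the receptor kinase Ddr2 (0.87). In KO P4ha3 rose by 1.45, Lama1 by 1.15 and Bmp1 by 0.89. Endothelial markers rose in WT (5 of 6) and in KO none passed the threshold.

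No chain passed the threshold between genotypes at P5 in air, at P5 after oxygen, in adults kept in air or in adults after neonatal oxygen (0.0375%, 0.187%, 0.075% and 0.0375% of all genes did in limma). The counts at an unadjusted p under 0.05 were 0, 2, 7 and 4 of 35, against 742, 400, 1578 and 1163 of all 13334 genes. At P5 in air the group values did not overlap for 5 chains (17.8% of all genes), and Col14a1 had the smallest p with a difference of 0.40 (adjusted p = 0.897).

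In adults kept in air the groups did not overlap for 11 chains (34.5% of all genes). Col3a1 lay at 13446 to 13871 on the WT arrays against 18805 to 20867 on the KO arrays, and differed by 0.51 ± 0.15 (adjusted p = 0.136). Col13a1 differed by -0.71, Col4a3 by -0.87, Col4a2 by -0.59 and Col4a1 by -0.43, and Col4a5 by 0.59. The second probe sets of Col4a1 and Col4a3 differed by -1.20 (adjusted p = 0.0688) and -1.62 (adjusted p = 0.0930). None of these passed in the fit over all groups. The 3' to 5' control ratio given above was higher in KO than in WT adults in air, without overlap. Its part in these differences was not tested. When the 2 groups were fitted alone 7 chains passed, for which no share of all genes is given. In adults after neonatal oxygen the intervals were -0.85 to 0.10 for Col4a2 and -1.36 to 0.08 for Col4a3, which neither excludes no difference nor one of the size seen in air. For 5 chains the groups did not overlap there (16.8% of all genes).

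After oxygen at P5, Col17a1, the hemidesmosome collagen of basal epithelium, read 13.4, 46.3 and 58.8 in WT and 194, 119.8 and 108 in KO. All KO values lay above all WT values and above the filter, and the WT values lay below it. The difference of 1.38 ± 0.35 did not pass the threshold (adjusted p = 0.174). The averaged level of 5 squamous epithelium markers was -0.84 to -0.58 on those WT arrays and 2.54 to 3.14 on the KO arrays, and its part in the difference was not tested. Non-overlapping groups were found for 8 chains (18.5% of all genes).

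Oxygen against air changed no chain past the threshold in WT or KO, at P5 or at P56 (0.0075% and 0.345% of all genes at P5 in WT and KO, 0% in both at P56, by limma). The counts at an unadjusted p under 0.05 were 2 and 2 at P5 and 5 and 1 at P56. Over all 13334 genes they were 409 and 777 at P5 and 680 and 360 at P56. Medians over the 35 chains lay between -0.04 and 0.08. The largest difference in KO pups was that of Col8a1, at 104, 115 and 100.4 in air and 213, 290.0 and 259 in oxygen, 1.07 ± 0.27 higher (95% interval 0.51 to 1.63, adjusted p = 0.122). In WT pups it read 145, 115 and 177 in air and 151, 203 and 230.4 in oxygen, a difference of 0.36 with overlapping values. In adults after oxygen it differed by 0.54 in each genotype, at 508, 983 and 590.4 in WT and 573, 473 and 565 in KO, above every air array of its genotype. Col8a1 was thus above air in each of the 4 oxygen comparisons by its mean, and in none did it pass.

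Col25a1 read 511, 526 and 544 after oxygen against 823, 923 and 715 in air in WT pups, a difference of -0.61, and differed by -0.65 in KO pups. Col18a1 read 1041, 781 and 822 after oxygen against 587, 567 and 604 in KO adults, a difference of 0.56 (adjusted p = 1.0). Neither passed the threshold, although the quoted values did not overlap. Of the 10 fibrillar chains none had an unadjusted p under 0.05 in any of the 4 oxygen comparisons. Their groups did not overlap for Col24a1 in WT pups (-0.47), Col3a1 in WT adults (0.21), and Col24a1 (-0.32), Col5a2 (0.32) and Col5a3 (0.34) in KO adults. Col1a1 read 8080.0, 5043 and 4233 in WT and 8074, 6697 and 5979 in KO after oxygen at P5, and each group overlapped with its air group. The genotype by oxygen terms were called for no chain at P5 (0.15% of all genes) or at P56 (0%). At an unadjusted p under 0.05 there was 1 chain in each, against 304 genes at P5 and 328 at P56. Non-overlapping groups were found for 6 chains in WT and 6 in KO at P5 (17.2% and 15.3% of all genes), and for 6 and 8 at P56 (14.7% and 15.7%).

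Over the 13 pairwise comparisons 26 of the 35 tested chains were called at least once and 9 never. The 9 were Col4a5, Col4a6, Col5a3, Col7a1, Col8a2, Col9a1, Col11a1, Col17a1 and Col22a1. No share of all genes is given for the 26, so that count is no result about collagens as a group. The 26 include Col24a1, Col25a1 and Col26a1, called only from P5 to P56, where the filter fixed their direction. They also include Col2a1, called in that step and from E19 to P5 in KO. It passed the filter only through P5 arrays, so its direction was fixed in each. The other probe sets of a chain were set beside each of its called differences. A probe set was counted again for every comparison in which its chain was called. Of the 42 cases counted so, none pointed the opposite way, and 31 were called in the same direction. The 42 are therefore not all different probe sets.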

How the data were processed

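The authors deposited 1 table of Affymetrix signal intensity values made with MAS5, per the submitters' processing notes (version not given in the sources used here); the values of each array have a 2% trimmed mean of 500.0, and no further scaling was applied. Symbols came from the platform annotation (34945 of 45101 probe sets carry 1 symbol, 932 several, 9160 none). Genes whose signal exceeded 100.4 on at least 3 arrays were tested on log2(signal + 26.3), the offset being the 25th percentile, in 1 limma 3.58.1 fit (R 4.3.3) of all 32 arrays (22 residual degrees of freedom; trend; Benjamini-Hochberg over 13334 genes; 17 contrasts, two-sided), tested on simulated data; tables and figures used pandas 2.3.3 and matplotlib 3.10.9. Intensity differences of low genes are understated on this scale, and no level was compared between probe sets. Members and lists were chosen with earlier results of these data known. Chains given array by array are those called in at least 2 comparisons or of highest mean signal in their class, plus Col17a1 and Col23a1, chosen after their values were seen; pathway genes named are among the 4 largest called changes of a list and comparison, except Bmp1 from P5 to P56 in KO, given as the counterpart of WT. Replicate numbers did not pair the arrays in 12 of 13 comparisons; in KO against WT at P5 after oxygen every correlation exceeded 0.1 (0.107 to 0.254). Alternatives were other offsets, filters, scalings, array weights, samples, probe sets and a replicate block, and, chosen after seeing the data, 2 arrays left out and a liver covariate.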

Additional observations from a re-analysis of the deposited data

Results flagged for a closer look

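In 3 cases an array stood far from the others of its group for a chain, among 70 groups of 4 tested, where chance flags about 1 in 20. Col24a1 was at 109 on WT E19 replicate 1, against 64.5 to 70.6 on the others. Col22a1, a chain of tissue junctions, was at 105.5 on KO E19 replicate 4, against 70.3 to 75.4. Col25a1 was at 2058 on KO E19 replicate 1, the array with the high 3' to 5' ratio, against 1016 to 1120 on the others.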

How the results depend on the processing

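The count of chains called from P5 to P56 in air stayed within 1.5 times under every alternative. It was 18 to 27 in WT and 19 to 24 in KO. Leaving out 1 array gave 20 in WT and 20 to 22 in KO, and the replicate block 21 and 22. Of 59 called differences 37 were called under every alternative and none reversed. At E19 the 6 calls became 12 with arrays centred on their medians, which moved the median of all genes from -0.05 to 0.23, 0 with the compared groups alone, 1 with the liver covariate and 2 to 10 with 1 array left out (10 without WT replicate 1, 3 without replicate 3, 2 without replicate 4). From E19 to P5 the 7 calls in WT became 3 with centring, 4 with the groups alone, 16 with array weights, 4 with the replicate block, 11 without the 2 arrays of high 3' to 5' ratio and 2 to 9 with 1 array left out (4 without WT E19 replicate 3, 3 without replicate 4, 2 without WT P5 air replicate 1 and 4 without replicate 2 or 3). The 3 in KO became 1, 0, 10 and 1 under the first 4 of these, and 0 to 5 with 1 array left out. Array weights called 1, 6, 7 and 13 chains between genotypes at P5 in air, P5 after oxygen, P56 in air and P56 after oxygen, 10 and 8 between oxygen and air at P5 in WT and KO, 7 and 3 at P56, and 3, 1, 2 and 8 for the genotype terms of oxygen at P5 and P56, birth and maturation. The groups alone called 7 chains between genotypes in adults in air and 5 for the maturation term. The array weights ran from 0.0468 to 10.4. No share of all genes is given beside the counts under these alternatives, so they are no result about collagens as a group. Without the 2 arrays 1 chain was called between genotypes in adults in air and 1 between oxygen and air in KO pups. Leaving out 1 array gave 0 to 1 for the birth term (1 without WT E19 replicate 1 or KO E19 replicate 3). The replicate block changed no other count of calls by over 1.5 times, including the 0 between genotypes at P5 after oxygen, the comparison whose numbers pair the arrays. The cause of these changes was not tested. Groups of 3 or 4 arrays limit the precision.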
